A study of Homo sapiens with 12 samples.

Results

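The AP-1 and immediate early genes described here were 10 genes, FOS, FOSB, FOSL1, FOSL2, JUN, JUNB, JUND, EGR1, ATF3 and IER2, of the 56266 genes in the expression tables. They were chosen by name as the FOS and JUN families with EGR1, ATF3 and IER2, and each symbol was found once in every library. The study asked how the loss of GATA2, a transcription factor of blood progenitors, affects blood formation from H1, an established human embryonic stem cell (hESC) line. RNA-Seq libraries of 5 groups with 2 replicates each were analysed, 10 in all. The first group was undifferentiated hESCs labelled GATA2-/-, which were not sorted. Hemogenic endothelial cells (HEs, CD34+CD31+CD43-) from wild-type (WT) H1 and from the GATA2-/- line were sorted at day 8 of co-culture with OP9, a mouse stromal line that drives blood formation. Hematopoietic progenitor cells (HPCs, CD34+CD43+) of both genotypes were sorted at day 9 of the same co-culture. WT hESCs were not analysed here, so any change from the stem cell stage could be followed in the GATA2-/- genotype alone. The GATA2-/- line is 1 clone in which a neomycin resistance cassette under the PGK promoter disrupts both alleles, so genotype and clone cannot be told apart. Co-cultures were dissociated with trypsin, enriched for CD34+ cells on magnetic beads and sorted by flow cytometry before RNA was taken. The labels do not say whether replicates were separate differentiations, and p-values measure the spread between these libraries only.

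AP-1 is a transcription factor made of a pair of leucine zipper proteins. FOS family proteins (FOS, FOSB, FOSL1, FOSL2) need a JUN family partner (JUN, JUNB, JUND), whereas JUN proteins can also pair with each other. FOS, FOSB, JUN, JUNB, EGR1, ATF3 and IER2 are immediate early genes. They are switched on within minutes of a growth factor, a cytokine or stress, by factors that are already in the cell, and their mRNAs are short-lived. JUND is expressed more steadily, and FOSL1 and FOSL2 often follow later. In the emerging blood system AP-1 is known as a factor that acts beside the blood master regulators at shared enhancers. Dissociating and sorting cells is itself known to raise these transcripts.

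The unit was TPM, a transcript abundance that divides by transcript length and scales each library to the same total, so levels of different genes can be compared within a library. The deposited TPM values summed to between 998299 and 999106 per library, and 16004 to 17335 genes per library reached a TPM of 1. Since such values do not retain the number of reads, the depth is unknown and no counting interval can be given. Replicates of a group differed by a median of 0.29 to 0.37 on the log2 scale over the 21543 genes tested. Those were the genes that reached a TPM of 1 in 2 or more libraries, and all 10 genes described here passed. Differences were tested with limma on log2(TPM + 1), with all 10 libraries in 1 fit, and a gene was called where the Benjamini-Hochberg adjusted p over all 21543 genes was under 0.05. Fold changes are on that scale and understate the change of low genes. SE is the standard error of a fold change. Directions are counted over the 4 pairs of libraries that 2 groups of 2 allow. The share of all genes with 4 of 4 pairs in one direction was not counted, so such counts only describe the genes named.

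The labels could be checked only in part. GATA2 had a TPM of 2.05 and 5.54 in hESCs labelled GATA2-/-, 106.8 and 78.03 in WT HEs, 110.93 and 94.06 in HEs labelled GATA2-/-, 290.08 and 204.17 in WT HPCs, and 112.47 and 83.82 in HPCs labelled GATA2-/-. A gene-level value counts any transcript of a disrupted locus, so it checks nothing about the knockout, and the genotypes below are those of the labels. The stages matched the markers POU5F1, CDH5 and SPN. POU5F1, the pluripotency factor, was at 3331.78 and 2855.42 TPM in hESCs and at most 3.02 elsewhere. CDH5, the endothelial cadherin, was at 514.16 to 613.63 TPM in HEs against 53.91 to 137.19 in HPCs, and SPN, which encodes CD43, was at 1.76 to 8.81 in HEs against 97.98 to 107.93 in HPCs. PTPRC (CD45), the pan-leukocyte marker, did not separate HPCs from hESCs. It was at 0.56 and 3.06 TPM in hESCs, was listed at 0 in all 4 HE libraries and reached at most 3.09 TPM in HPCs.

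The genes are spread over 6 chromosomes of GRCh37. FOS lies at chr14:75745529-75748933 on the plus strand, EGR1 at chr5:137801168-137804992 on the plus strand and JUN at chr1:59242517-59249720 on the minus strand. JUNB, IER2, JUND and FOSB share chromosome 19, with JUNB at chr19:12902300-12904129 (plus), IER2 at chr19:13261225-13265725 (plus), JUND at chr19:18390504-18392432 (minus) and FOSB at chr19:45971253-45978437 (plus). FOSL1 lies at chr11:65659520-65668044 (minus), FOSL2 at chr2:28615315-28640184 (plus) and ATF3 at chr1:212738676-212794119 (plus). JUN, JUNB and JUND each have 1 exon in their GENCODE canonical transcripts, and EGR1 and IER2 have 2. FOSB overlaps ERCC1, and JUNB overlaps HOOK2, on the opposite strand, and the sources do not say that counting used the strand. ERCC1 was at 120.79 to 147.31 TPM in HEs and 94.31 to 134.96 in HPCs, and HOOK2 at 14.42 to 29.06 and 20.31 to 33.6.

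The 500 bases before the start of each canonical transcript, read from the GRCh37 genome, were searched on both strands for 4 motifs. The CArG box, the core of the serum response element that SRF binds, was found in FOS, FOSB and EGR1, 3 of the 10 genes, against 2.4% of 19881 windows of protein-coding genes. TGACGT, the core of the cAMP response element that CREB and ATF proteins bind, was in 8 of 10 against 11.9% of windows. TGACNTCA, the longer form that contains TGACGT where N is G, was in FOSB, JUN and JUND against 10.9% of windows. TGANTCA, which includes the usual AP-1 site but allows any base at N, was in none of the 10 against 9.68% of windows. These matches are letters in a window and say nothing of binding in these cells. JUNB and IER2 held none of the 4 motifs. The stretches are shown for 3 of the 4 genes that rose from HEs to HPCs, the other being JUNB, and for JUN and JUND, which were not called between HEs and HPCs. Each reads 5′ to 3′ on the strand of its gene, with the matched letters in capitals, and ACGTCA is TGACGT on the other strand. They lie in order at chr14:75745205-75745238, chr14:75745455-75745484, chr19:45970917-45970948, chr19:45970968-45971001, chr5:137800738-137800825, chr5:137801020-137801118, chr1:59249767-59249798 and chr19:18392613-18392644 of GRCh37.
FOS CArG box: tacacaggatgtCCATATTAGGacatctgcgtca
FOS TGACGT: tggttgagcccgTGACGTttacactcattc
FOSB TGACGTCA: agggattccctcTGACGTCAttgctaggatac
FOSB CArG box: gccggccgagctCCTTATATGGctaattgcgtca
EGR1 upstream CArG boxes: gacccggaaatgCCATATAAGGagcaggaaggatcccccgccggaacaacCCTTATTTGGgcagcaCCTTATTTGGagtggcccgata
EGR1 proximal CArG boxes and TGACGT: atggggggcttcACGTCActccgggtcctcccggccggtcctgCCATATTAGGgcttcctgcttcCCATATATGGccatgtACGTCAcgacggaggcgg
JUN TGACATCA: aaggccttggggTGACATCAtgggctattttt
JUND TGACGTCA: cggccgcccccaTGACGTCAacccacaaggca
EGR1 held 5 CArG boxes in its window, in a group of 3 that starts 418 bases before the transcript start and a group of 2 that starts 105 bases before it. FOS held 1, 314 bases before its start, and FOSB held 1, 274 bases before its start. The JUN motif starts 67 bases before the transcript start and carries A at the N of TGACNTCA.

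Between HEs and HPCs the same 4 of the 10 genes rose in both genotypes, FOS, FOSB, JUNB and EGR1, and none fell. The other FOS and JUN family members, ATF3 and IER2 were not called in either. The rise was 1.44 to 2.0 on the log2 scale in WT and 2.09 to 3.19 in the cells labelled GATA2-/-. In WT, 3.32% of all genes tested rose and 6.59% fell between these stages, and in cells labelled GATA2-/- 5.50% rose and 7.24% fell. The share of called genes that rose in GATA2-/- was 43.2%, and 55% when mitochondrial and globin genes were taken out of the TPM total. In bulk libraries, fewer cells of a type and less RNA per cell cannot be told apart.

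FOS, the founding FOS family member, was at 116.02 and 142.78 TPM in WT HEs and at 310.38 and 417 in WT HPCs, a rise of 1.48 (SE 0.32, adjusted p = 0.0221 by limma). In cells labelled GATA2-/- it was at 28.59 and 54.91 TPM in HEs and at 185.06 and 226.84 in HPCs, a rise of 2.34 (SE 0.32, adjusted p = 0.00218 by limma). Every HPC library was above every HE library in both genotypes, and the 2 genotypes did not overlap at either stage. Over all 5 groups FOS was lowest in hESCs at 14.5 and 9.29 TPM, followed by HEs labelled GATA2-/-, WT HEs, HPCs labelled GATA2-/- and WT HPCs, with no overlap between neighbours in that order.

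FOSB, the close relative of FOS, had a similar course at a lower level. It was at 22.6 and 21.69 TPM in WT HEs and 80.15 and 105.27 in WT HPCs, a rise of 2.0 (SE 0.30, adjusted p = 0.00372 by limma). In cells labelled GATA2-/- it was at 9.32 and 7.69 TPM in HEs and 47.12 and 84.43 in HPCs, a rise of 2.76 (SE 0.30, adjusted p = 0.000673 by limma). The groups of different stages did not overlap, but WT and GATA2-/- HPCs did.

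JUNB, a JUN family member that is often a weaker activator than JUN, was at 42.38 and 36.41 TPM in WT HEs and 100.6 and 115.99 in WT HPCs. With the GATA2-/- label it was at 16.85 and 19.77 TPM in HEs and 63.74 and 103.48 in HPCs. The rise was 1.44 in WT (SE 0.35, adjusted p = 0.0333 by limma) and 2.09 in GATA2-/- (SE 0.35, adjusted p = 0.00498 by limma). As with FOSB, HEs and HPCs were separate in each genotype and the HPCs of the genotypes overlapped.

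EGR1, a zinc finger factor induced by SRF and its partners, differed between replicates in HEs of both genotypes. It was at 92.45 and 39.14 TPM in WT HEs and 38.82 and 14.9 in HEs labelled GATA2-/-. In HPCs the replicates were close, at 242.24 and 213.54 TPM in WT and 216.77 and 239.91 in GATA2-/-. The rise was 1.90 in WT (SE 0.49, adjusted p = 0.0435 by limma) and 3.19 in GATA2-/- (SE 0.49, adjusted p = 0.00358 by limma). The first replicate was the higher in HEs of both genotypes, and every HPC library was above every HE library.

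**Figure D1:**
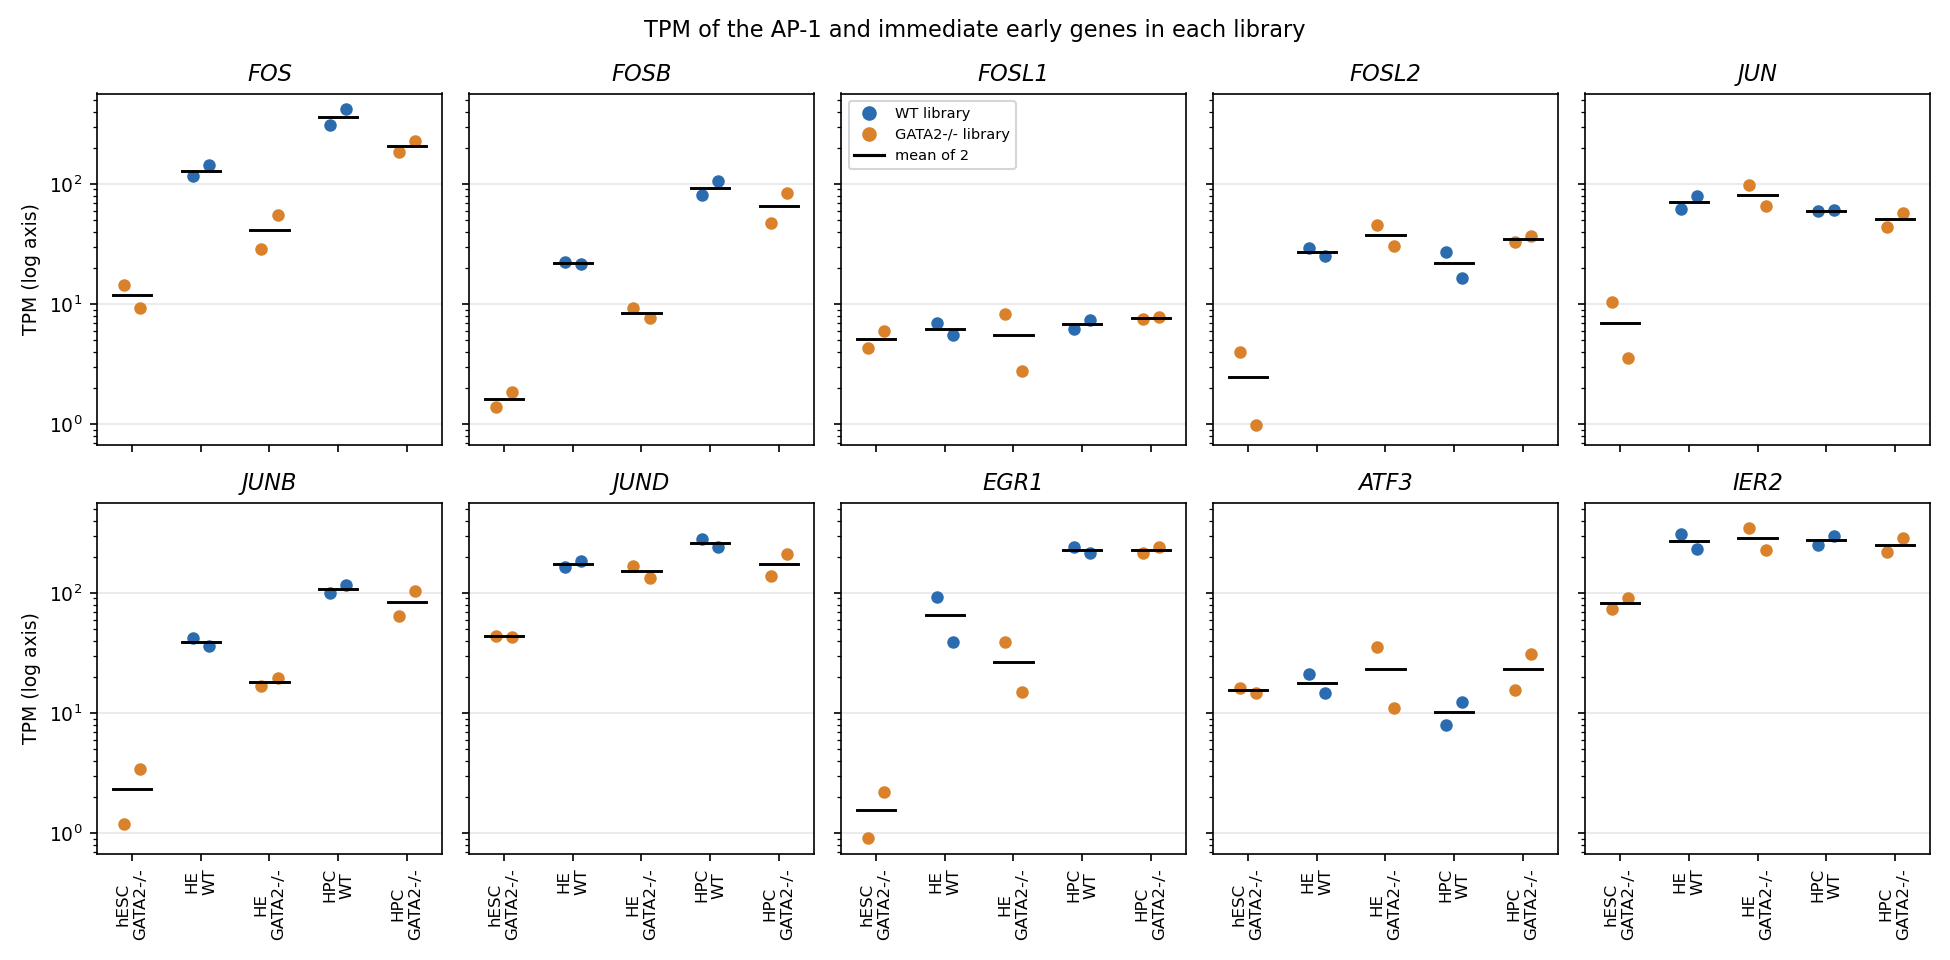
TPM of each of the 10 genes on a log axis in every library, with the 5 groups along the horizontal axis, blue points for WT, orange points for libraries labelled GATA2-/-, and a black line at the mean of the 2 replicates. FOS, FOSB, JUNB and EGR1 step up from HEs to HPCs, for example FOS from 116.02 and 142.78 to 310.38 and 417 TPM in WT, whereas the JUN points of HPCs lie below those of HEs in each genotype (59.24 and 60.44 TPM against 61.69 and 79.52 in WT, 43.86 and 57.84 against 97.21 and 65.8 in GATA2-/-).

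JUN, a JUN family partner of the FOS proteins, was at 61.69 and 79.52 TPM in WT HEs and 59.24 and 60.44 in WT HPCs. In cells labelled GATA2-/- it was at 97.21 and 65.8 TPM in HEs and 43.86 and 57.84 in HPCs. The log2 difference between HPCs and HEs was -0.22 in WT (95% interval -1.12 to 0.67) and -0.66 in GATA2-/- (-1.56 to 0.24), lower in 4 of 4 pairs in each but not called. In WT it was -0.40 without the first HE library and -0.043 without the second, and in GATA2-/- -0.38 without the first HE library. JUND, the steadily expressed JUN gene, was at 163.15 and 183.14 TPM in WT HEs and 280.96 and 241.02 in WT HPCs, a difference of 0.59 (SE 0.22, adjusted p = 0.141 by limma). In cells labelled GATA2-/- JUND was at 168.99 and 133.05 TPM in HEs and 138.46 and 212.52 in HPCs, and these groups overlapped. FOSL2, which encodes Fra-2, was at 16.51 to 45.22 TPM over the 8 HE and HPC libraries, and FOSL1, which encodes Fra-1, at 2.79 to 8.34. IER2, a nuclear protein of the immediate early response, had the highest HE levels of the 10 genes, at 229.86 to 344.34 TPM, and its HPC levels of 219.17 to 300.48 overlapped them. ATF3, the stress-induced member of the ATF family, was at 11.08 to 35.4 TPM in HEs and 7.94 to 30.8 in HPCs. The log2 intervals of these genes between stages reached from -1.93 (ATF3 in WT) to 1.5 (FOSL1 in GATA2-/-), and changes up to that size lie within them.

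The 4 calls rested on few libraries in WT. FOSB was called with any 1 of the 4 WT libraries left out (adjusted p = 0.0145 to 0.0424 by limma), whereas FOS (rise 1.26 to 1.69) and JUNB (1.33 to 1.54) lost their call with every one of them. EGR1 kept its call without the first WT HE library (2.51) and lost it without the second WT HE library (1.29), the first WT HPC library (1.81) or the second (1.99). In cells labelled GATA2-/- all 4 genes stayed called without any 1 of the 4 libraries. In a limma fit of only the 4 libraries compared, however, none of them was called in either genotype, with adjusted p from 0.0705 (FOSB) to 0.0919 (EGR1) in GATA2-/-. With no filter on low values JUNB and EGR1 lost their call there.

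**Figure D2:**
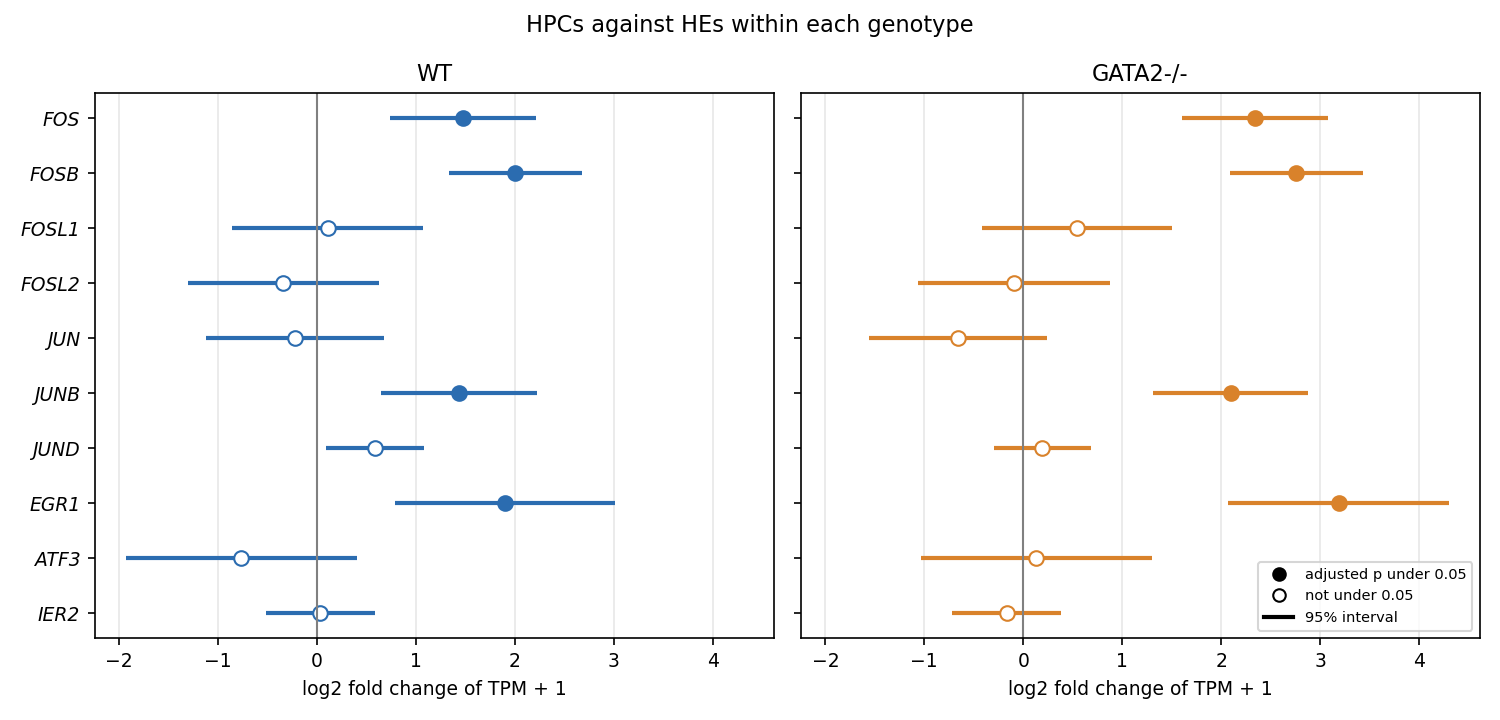
Log2 fold change of TPM + 1 between HPCs and HEs for the 10 genes, in WT on the left and in cells labelled GATA2-/- on the right, with points for the estimate, lines for its 95% interval and filled points for an adjusted p under 0.05. Filled points are FOS, FOSB, JUNB and EGR1 in both panels, between 1.44 and 3.19, and the intervals of the other genes include 0 except that of JUND in WT, which misses the adjusted threshold.

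From hESCs to HEs, both labelled GATA2-/-, 8 of the 10 genes rose and none fell, where 13.9% of all genes tested rose and 16.1% fell. From hESCs to HPCs the same 8 rose and none fell, where 14.2% of all genes tested rose and 16.4% fell. These 2 comparisons share the hESC libraries. In a limma fit of only the libraries compared each count was 7, with FOS not called into HEs (adjusted p = 0.084) and JUN not called into HPCs (adjusted p = 0.0521). FOSL1 and ATF3 were not called in either. The stem cells were grown and collected in another way than the sorted cells, so stage and handling cannot be told apart here.

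The rises into HEs and from HEs to HPCs were not tested against each other. JUN went from 10.46 and 3.56 TPM in hESCs to 97.21 and 65.8 in HEs, a rise of 3.49 (SE 0.40, adjusted p = 0.000261 by limma). FOSL2 went from 3.97 and 0.99 TPM to 45.22 and 30.26, a rise of 3.60 (SE 0.43, adjusted p = 0.000337 by limma). The HPC libraries of that genotype, at 43.86 and 57.84 TPM for JUN and 32.7 and 36.53 for FOSL2, did not reach beyond these HE values for either gene. IER2 and JUND also rose at this step, from a higher start. IER2 was at 74.18 and 90.34 TPM in hESCs and rose by 1.77 into HEs (SE 0.24, adjusted p = 0.000731 by limma), and JUND was at 43.77 and 43.17 TPM and rose by 1.76 (SE 0.22, adjusted p = 0.000407 by limma). FOSB, JUNB and EGR1 rose from hESCs to HEs and again from HEs to HPCs. For these, both rises below are counted from hESCs. EGR1 was at 0.92 and 2.22 TPM in hESCs, and its rise was 3.34 into HEs (SE 0.49, adjusted p = 0.0011 by limma) and 6.53 into HPCs (SE 0.49, adjusted p = 3.06e-05 by limma). JUNB was at 1.2 and 3.45 TPM in hESCs and rose by 2.62 and 4.72, and FOSB at 1.38 and 1.87 TPM rose by 1.86 and 4.62. FOS rose by 1.69 into HEs (adjusted p = 0.00453 by limma) and lost that call without the second hESC library (1.39, adjusted p = 0.0614), while its rise of 4.03 into HPCs kept it.

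Between HEs labelled GATA2-/- and WT HEs none of the 10 genes was called by limma, where 0.0186% of all genes tested were called, 4 of 21543. At an unadjusted p under 0.05, 1045 genes differed, and 4 of them were FOS, FOSB, JUNB and EGR1. Each of the 4 was lower in the HEs labelled GATA2-/- in 4 of 4 pairs of libraries. How many of all genes were lower in 4 of 4 pairs was not counted. The log2 difference was -1.67 for FOS (SE 0.32, unadjusted p = 0.00064, adjusted p = 0.372 by limma), -1.29 for FOSB (SE 0.30, adjusted p = 0.515), -1.07 for JUNB (SE 0.35, adjusted p = 0.821) and -1.28 for EGR1 (SE 0.49, adjusted p = 0.944). The EGR1 difference moved when 1 library was left out. It was -0.67 without the first WT library, -1.89 without the second, -1.95 without the first library labelled GATA2-/- and -0.62 without the second. Each of these leaves 1 replicate number in only 1 of the genotypes, and between libraries of the same number EGR1 differed by -1.23 and -1.34. The mean FOS level was 129.4 TPM in WT and 41.8 in GATA2-/-, and the mean JUNB level 39.4 and 18.3. FOSL2 was higher in 4 of 4 pairs, by 0.44 (SE 0.43), and JUN in 3 of 4, by 0.19 (SE 0.40), neither past the threshold. FOSL2 was 0.15 without the first library labelled GATA2-/- and 0.72 without the second, and JUN was -0.089 and 0.47.

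Between HPCs labelled GATA2-/- and WT HPCs none of the 10 was called by limma either, where 0.0603% of all genes tested were called, 13 of 21543. At an unadjusted p under 0.05, 1925 of the 21543 genes differed, and FOS and JUND were the 2 of the 10 among them. FOS was lower in 4 of 4 pairs, by a log2 difference of -0.81 (SE 0.32, unadjusted p = 0.0344, adjusted p = 0.502 by limma). JUND was lower in 4 of 4 pairs, by -0.60 (SE 0.22, unadjusted p = 0.0227, adjusted p = 0.457 by limma). EGR1 had a difference of 0.00 with a 95% interval from -1.11 to 1.12. ATF3 was at 7.94 and 12.43 TPM in WT HPCs and at 15.63 and 30.8 in those labelled GATA2-/-, higher in 4 of 4 pairs by 1.07 (SE 0.51, adjusted p = 0.593 by limma). FOSL2 was higher in 4 of 4 pairs, by 0.68 (SE 0.43, adjusted p = 0.691). The JUND, ATF3 and FOSL2 differences moved when 1 library was left out. JUND was -0.29 without the first library labelled GATA2-/- and -0.91 without the second, ATF3 was 0.60 without the second of them, and FOSL2 was 1.02 without the first WT library and 0.34 without the second. Each of these leaves 1 replicate number in only 1 of the genotypes. Between libraries of the same number JUND differed by -1.02 and -0.18, ATF3 by 0.90 and 1.24, and FOSL2 by 0.26 and 1.10.

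The test of whether the genotype difference changed from HEs to HPCs called none of the 10 and 0% of all genes tested by limma, with 1281 genes at an unadjusted p under 0.05 and none of the 10 among them. The change was 0.86 for FOS (SE 0.46), 0.75 for FOSB (SE 0.42), 0.66 for JUNB (SE 0.49) and 1.29 for EGR1 (SE 0.69), and the unadjusted p of these 4 was between 0.0924 and 0.212. All 95% intervals included 0, for EGR1 from -0.29 to 2.86. Among the libraries labelled GATA2-/-, FOS was 0.40 without the first HE library and 1.32 without the second, and EGR1 was 1.95 and 0.63. FOSB was 1.17 without the first HPC library of that genotype and 0.34 without the second, and JUNB was 1.0 and 0.31. EGR1 was also 0.68 without the first WT HE library. Each of these fits lacks a replicate number in 1 group and keeps it in the others. Between libraries of the same number EGR1 rose from HEs to HPCs by 1.38 and 2.42 in WT and by 2.45 and 3.92 in GATA2-/-. The larger rise of FOS, FOSB, JUNB and EGR1 between stages in cells labelled GATA2-/- is the same quantity. That rise was thus not shown to differ from the rise in WT.

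**Figure D3:**
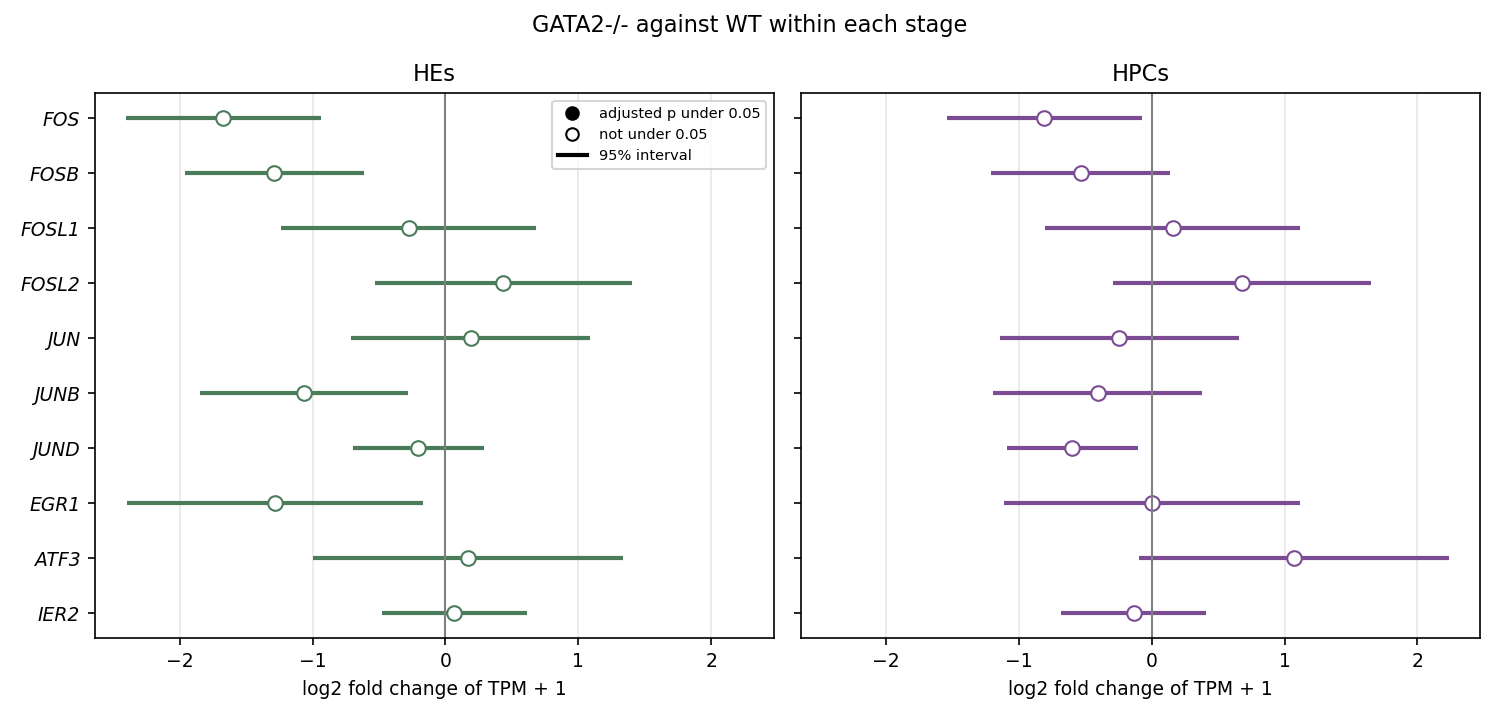
Log2 fold change of TPM + 1 between cells labelled GATA2-/- and WT for the 10 genes, in HEs on the left and in HPCs on the right, with lines for the 95% interval and open points because no adjusted p was under 0.05. In HEs the intervals of FOS, FOSB, JUNB and EGR1 lie below 0, with estimates from -1.67 to -1.07, and in HPCs those of FOS and JUND do.

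Summed over the 7 FOS and JUN family genes, the AP-1 transcripts were at 79.6 and 68.3 TPM in hESCs, 442.2 and 494 in WT HEs, 374.5 and 314.3 in HEs labelled GATA2-/-, 864.7 and 963.5 in WT HPCs, and 518.4 and 729.5 in HPCs labelled GATA2-/-. The makeup of this sum differed between groups. JUND held 55.0% and 63.2% of it in hESCs and 25.0% to 32.5% in HPCs. FOS held 26.2% and 28.9% in WT HEs, 7.63% and 17.5% in HEs labelled GATA2-/-, and 31.1% to 43.3% in HPCs. The FOS family together held 39.6% and 39.5% in WT HEs, 24.4% and 30.4% in HEs labelled GATA2-/-, and 48.8% to 56.7% in HPCs. FOS was thus above JUN in every library except the 2 HE libraries labelled GATA2-/-. The ratio of FOS to JUN was 0.294 and 0.834 in those, 1.88 and 1.80 in WT HEs, 5.24 and 6.90 in WT HPCs and 4.22 and 3.92 in HPCs labelled GATA2-/-. These shares rest on the same values as the fold changes above and are a description.

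**Figure D4:**
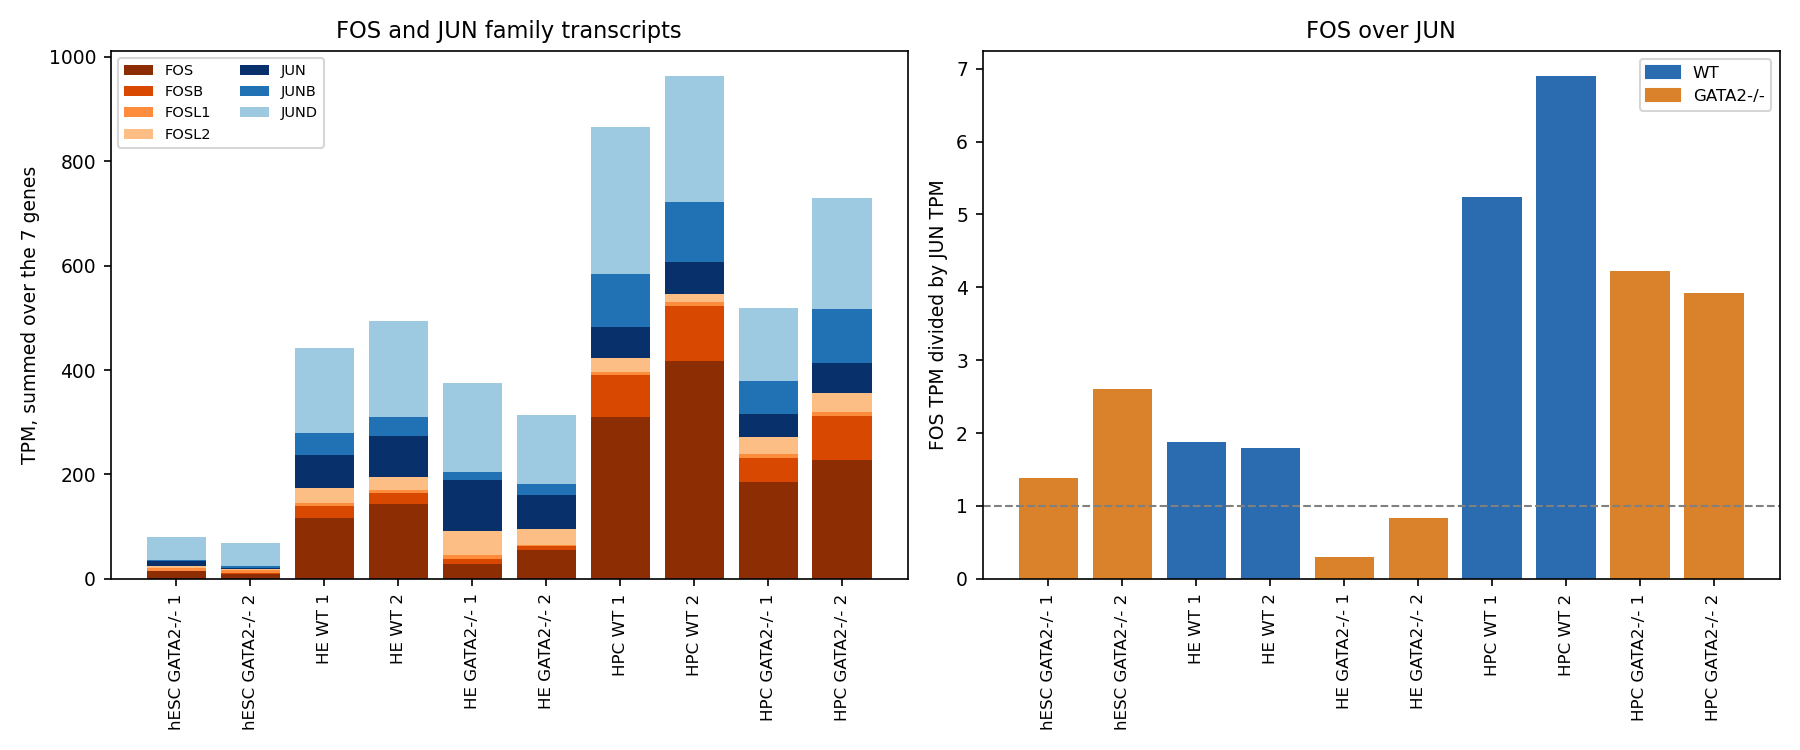
Left, TPM of the 7 FOS and JUN family genes stacked for each library, with FOS family genes in orange shades and JUN family genes in blue shades; right, FOS TPM divided by JUN TPM in each library, with a dashed line at 1. With the GATA2-/- label the sum goes from 68.3 and 79.6 TPM in hESCs to 518.4 and 729.5 in HPCs. It is 864.7 and 963.5 TPM in WT HPCs, for which no WT hESC library was analysed. The bars of the HE libraries labelled GATA2-/- are the ones below the line, at 0.294 and 0.834.

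Over the 10 libraries, log2(TPM + 1) of FOS ran with that of FOSB (r = 0.97), JUNB (0.96) and EGR1 (0.93), and JUNB with FOSB (0.98) and EGR1 (0.98). JUN ran with FOSL2 (0.96) and IER2 (0.92) more closely than with FOS (0.69). ATF3 ran with none of the JUN family, FOS, FOSB or EGR1 (r from -0.22 to 0.16). The libraries share stages and 1 fit, so these values describe the stage pattern over 10 points. Of 11923 genes whose mean TPM reached 5, those with the pattern most like FOS were DAZAP2 (r = 0.98), ARHGAP9 (0.97), FOSB (0.97), TMIGD2 (0.97) and SELP (0.97). Those most like EGR1 were CD226, ELF1, MYL4, CBFA2T3 and MICALL2 (all 0.99), and those most like JUN were RELT, ITGB2, ZNF467, CA2 and GYPC (all 0.98).

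Other immediate early genes moved in both directions between stages. Of 28 in a list, 10 rose and 6 fell between HEs and HPCs in WT, and the same 10 rose and the same 6 fell in cells labelled GATA2-/-, where 3.32% of all genes rose and 6.59% fell in WT and 5.50% and 7.24% in GATA2-/-. With 1 library left out, 10 to 14 of the 28 were called in each genotype, with 10 in WT without either HE library or the second HPC library, and 10 in GATA2-/- without the second HE library. The list's median log2 change was 0.01 in WT and -0.17 in GATA2-/-, against -0.01 and 0.03 over all genes. The 10 that rose were EGR2, EGR3 and EGR4, zinc finger relatives of EGR1, the orphan nuclear receptors NR4A1, NR4A2 and NR4A3, the antiproliferative BTG2, the mRNA decay factor ZFP36, the nuclear phosphatase DUSP2 and the stress phosphatase subunit PPP1R15A. NR4A2 was at 0.63 and 1.67 TPM in WT HEs and 21.86 and 26.23 in WT HPCs, a rise of 3.58 (SE 0.39, adjusted p = 0.000865 by limma), and rose by 3.82 in GATA2-/-. EGR3 was at 8.18 and 2.81 TPM in WT HEs and 58.4 and 56.72 in WT HPCs, a rise of 3.31 (SE 0.48, adjusted p = 0.00349 by limma), and rose by 4.57 in GATA2-/-. The most abundant of the NR4A genes, NR4A1, went from 47.05 and 24.57 TPM to 229.72 and 266.23 in WT.

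The 6 that fell were DUSP6, a phosphatase of ERK, KLF2, a factor of endothelium under flow, the matricellular genes CYR61 and CTGF, the kinase SGK1 and IER5. CYR61 was at 76.95 and 82.33 TPM in WT HEs and 25.26 and 27.61 in WT HPCs and fell by 1.56 (SE 0.36, adjusted p = 0.0291 by limma). IER5 fell by 1.32 in WT and 1.52 in GATA2-/-. DUSP6, at 205.98 and 180.23 TPM in WT HEs, was at 35.91 and 17.44 in WT HPCs and fell by 2.89 (SE 0.46, adjusted p = 0.00496 by limma). CTGF fell by 2.50 in WT, and SGK1 fell by 3.03 in GATA2-/-. HE and HPC libraries of a genotype did not overlap for CYR61, IER5 or DUSP6. A CArG box was found in the window of 6 of the 28, in 2 of the 10 that rose, 1 of the 6 that fell and 3 of the other 12. From hESCs to HEs labelled GATA2-/- 12 of the 28 rose and 1 fell (13.9% and 16.1% of all genes), and to HPCs 14 rose and 5 fell (14.2% and 16.4%). KLF2 rose by 6.19 into HEs, and EGR3 by 5.92 and BTG2 by 4.49 into HPCs. None of the 28 was called between genotypes by limma, with 2 at an unadjusted p under 0.05 in HEs and 2 in HPCs. PPP1R15A was lower in cells labelled GATA2-/- in 4 of 4 pairs at both stages, by -0.48 (adjusted p = 0.793) in HEs and -0.45 (adjusted p = 0.403) in HPCs. EGR3 was lower in 4 of 4 pairs of HEs, by -1.22 (adjusted p = 0.957 by limma).

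Among 18 leucine zipper genes related to AP-1 (ATF, CREB, BATF, MAF and NFE2 genes), 2 rose and 4 fell from HEs to HPCs in WT, and 1 rose and 3 fell in cells labelled GATA2-/-. The shares over all genes were 3.32% and 6.59% in WT and 5.50% and 7.24% in GATA2-/-. The list's median log2 change was -0.091 in WT and -0.21 in GATA2-/-, against -0.01 and 0.03 over all genes. The 6 calls in WT became 3 without either HE library, 2 without the second HPC library and 4 without the first. NFE2, a regulator of platelet and globin genes, was at 36.19 and 17.16 TPM in WT HEs and 209.08 and 206.39 in WT HPCs, a rise of 3.01 (SE 0.47, adjusted p = 0.00475 by limma). With the GATA2-/- label it was at 7.58 and 2.13 TPM in HEs and 235.17 and 221.71 in HPCs, a rise of 5.47 (SE 0.47, adjusted p = 0.000339 by limma). MAFG, a small MAF partner of NFE2, rose by 1.06 in WT. MAF, a large MAF factor, fell by 2.17 in WT. CREM, a cAMP response factor, fell by 1.25 in WT and 1.72 in GATA2-/-, and NFE2L1 fell by 1.09 and 1.24. From hESCs to HEs 5 of the 18 rose and 0 fell (13.9% and 16.1% of all genes), and to HPCs 4 rose and 1 fell (14.2% and 16.4%). MAFF, a small MAF protein, rose by 2.47 into HEs, and NFE2 rose by 6.57 into HPCs. None of the 18 was called between genotypes by limma, with 1 at an unadjusted p under 0.05 in HEs and 0 in HPCs. That 1 was NFE2, with a difference of -2.33 (SE 0.47, adjusted p = 0.406 by limma).

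Of 21 genes for the kinases and SRF partners upstream of the immediate early genes, 2 rose and 4 fell between stages in WT, and 2 rose and 2 fell in cells labelled GATA2-/-. Of all genes tested 3.32% rose and 6.59% fell in WT, and 5.50% and 7.24% in GATA2-/-. The list's median log2 change was -0.20 in WT and 0.30 in GATA2-/-, against -0.01 and 0.03 over all genes. The 6 calls in WT became 3 without the first HE library and 2 without the second, and the 4 in GATA2-/- became 2 without either HE library or the first HPC library. MKL1, an SRF coactivator, rose by 1.45 in WT (SE 0.26, adjusted p = 0.00866 by limma) and 1.24 in GATA2-/-. RPS6KA1, an ERK-activated kinase, rose by 0.94 in WT, and MAPK14, the stress kinase p38, by 0.82 in GATA2-/-. MAP2K1, the kinase above ERK, fell by 1.10 in WT and 1.38 in GATA2-/-, and ELK3, an SRF partner, by 1.95 and 1.83. MAPK3 (ERK1) fell by 1.13 in WT. SRF itself was at 37.3 to 67.09 TPM in HEs and 45.58 to 74.76 in HPCs, and these overlapped. From hESCs to HEs 4 of the 21 rose and 0 fell, and to HPCs 5 rose and 2 fell, with ELK3 up by 3.96 and 2.13, where 13.9% and 14.2% of all genes rose and 16.1% and 16.4% fell. The 4 became 2 without the first hESC or the first HE library, and the 7 became 3 without the first hESC library. None of the 21 was called between genotypes by limma, with 2 at an unadjusted p under 0.05 in HEs and 5 in HPCs, of which MAPK3 had the smallest p, with a difference of 0.65 (adjusted p = 0.294).

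Of 20 genes known as AP-1 targets, 15 were tested. From HEs to HPCs 0 rose and 4 fell in WT, and 1 rose and 7 fell in cells labelled GATA2-/-, with a median log2 change of -0.92 and -1.24 against -0.01 and 0.03 over all genes. Of all genes 3.32% rose and 6.59% fell in WT, and 5.50% and 7.24% in GATA2-/-. The 4 calls in WT became 2 without either HE library or the second HPC library, and the 8 in GATA2-/- became 3 without either HE library and 5 without either HPC library. The 4 that fell in WT were the proteases MMP14 and PLAU, the PLAU receptor PLAUR, and VIM, an intermediate filament of mesenchymal and endothelial cells. MMP14 was at 324.78 and 312.55 TPM in WT HEs and 111.11 and 81.45 in WT HPCs and fell by 1.73 (SE 0.21, adjusted p = 0.00149 by limma), VIM fell by 2.07 and PLAU by 1.88. The same 4 fell in GATA2-/-, with MMP2, CCND1 and HBEGF as well, and there PLAU fell by 2.12 and CCND1 fell by 2.11. HMOX1, a heme-degrading enzyme, rose by 1.56 in GATA2-/-. HMOX1 in that genotype was the only call upward among the 15 in either. From hESCs to HEs 9 of the 15 rose and 2 fell (13.9% and 16.1% of all genes), and to HPCs 5 rose and 3 fell (14.2% and 16.4%), with the adhesion receptor CD44 up by 3.62 and 3.27. These 11 and 8 calls became 7 without the first hESC library and 5 without either hESC library. None of the 15 was called between genotypes by limma, with 1 at an unadjusted p under 0.05 at each stage. These were HMOX1 in HEs, at -0.80, and HBEGF, an EGF receptor ligand, in HPCs, at -0.99.

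Heat shock genes, which also respond to cell handling, were compared beside them. Of 14, 13 were tested. Between HEs and HPCs 0 rose and 1 fell in WT (BAG3, a cochaperone, by 1.39), and 1 rose (HSPE1, by 0.57) and 2 fell (BAG3 and HSPB1) in cells labelled GATA2-/-. Their median log2 change was 0.079 in WT and 0.22 in GATA2-/-, and 3.32% of all genes rose and 6.59% fell in WT, and 5.50% and 7.24% in GATA2-/-. Their summed level was 4195 to 5274 TPM in HEs and 4735 to 5160 in HPCs, with HSP90AB1 and HSPA8 the most abundant, and these overlapped. HSPA1A, the inducible chaperone, was at 27.54 to 33.05 TPM in HEs and 20.04 to 29.15 in HPCs. From hESCs to HEs 2 rose and 6 fell (13.9% and 16.1% of all genes), and to HPCs 1 rose and 3 fell (14.2% and 16.4%). With 1 library left out the heat shock calls between stages were 0 to 1 in WT and 1 to 3 in GATA2-/-, and those from hESCs 4 to 6 into HEs and 2 to 3 into HPCs. Between genotypes none was called by limma at either stage, with 0 at an unadjusted p under 0.05 in HEs and 1 in HPCs. The part that dissociation and sorting had in the FOS, FOSB, JUNB and EGR1 levels was not tested.

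Markers of other cell types moved with these genes. Between HEs and HPCs 3.32% of all genes rose and 6.59% fell in WT, and 5.50% and 7.24% in GATA2-/-. From HEs to HPCs all 6 erythroid markers rose in both genotypes, and their summed TPM went from 103.2 and 52.3 to 3217 and 8996 in WT, with the globin HBE1 the most abundant in WT HPCs. Of 5 megakaryocyte markers 4 rose in WT and 3 in GATA2-/-, led by ITGA2B at 1147.41 and 1257.66 TPM in WT HPCs. Of 8 monocyte or macrophage markers 5 were tested, and 3 rose in both genotypes, with AIF1 the most abundant. The defining monocyte markers CD14, FCGR1A and MPEG1 were at or below 0.44 TPM in all 10 libraries. All 5 endothelial markers fell. Of 8 mesenchymal markers COL1A2, COL3A1 and LUM fell in both genotypes and none rose, and their sum went from 717.6 and 553.3 TPM to 236.7 and 100.8 in WT and from 602.2 and 409.7 to 202.6 and 125.7 in GATA2-/-. COL3A1, a fibrillar collagen, was at 228.81 and 179.78 TPM in WT HEs and 9.85 and 1.93 in WT HPCs. The part these cells had in the rise of FOS, FOSB, JUNB and EGR1 was not tested.

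In the HE comparison of genotypes, the summed erythroid markers were at 103.2 and 52.3 TPM in WT and 17.9 and 16.3 in GATA2-/-, with 5 of 6 at an unadjusted p under 0.05 and 0 called. The summed megakaryocyte markers were at 107 and 91.96 TPM in WT and 46.1 and 26.3 in GATA2-/-, with PF4, a platelet chemokine, called lower at 37.33 and 32.12 TPM against 3.66 and 4.70. No gene was called between genotypes in HEs when any 1 of the 4 libraries was left out, so PF4 lost its call each time, nor in a limma fit of only these libraries. The hematopoietic markers summed to 124.8 and 93 TPM in WT and 78.93 and 54.48 in GATA2-/-, and 1 of 5 was at an unadjusted p under 0.05 and 0 were called. That 1 was MYB, a factor of blood progenitors, at 26.45 and 14.5 TPM against 6.67 and 3.53 (difference -1.81, adjusted p = 0.349 by limma). VAV1, the most abundant of them, was lower in 4 of 4 pairs, SPN in 3 of 4, and PTPRC was listed at 0. The monocyte or macrophage markers summed to 50.8 and 56.43 TPM in WT and 33.31 and 30.11 in GATA2-/-, with 1 of the 5 tested, LYZ, at an unadjusted p under 0.05 (difference -0.98, adjusted p = 0.793 by limma). The mesenchymal list summed to 717.6 and 553.3 TPM in WT and 602.2 and 409.7 in GATA2-/-, led by COL1A2, and 1 of 8, LUM, was at an unadjusted p under 0.05 (difference -1.61, adjusted p = 0.615 by limma). None of the 8 had a difference above 0, and COL3A1 was lower in 4 of 4 pairs, at 228.81 and 179.78 TPM against 136.43 and 130.7. The erythroid, megakaryocyte, hematopoietic and monocyte sums were lower in HEs labelled GATA2-/- without overlap, and the mesenchymal sums, with a median difference of -0.42 over the list, overlapped. The endothelial sums went the other way without overlap, at 2549 and 2560 TPM in WT and 2980 and 2595 in GATA2-/-. Of the 5 endothelial markers 4 had a difference above 0, with a median of 0.16, and 0 were called. The part these cells had in the FOS, FOSB, JUNB and EGR1 differences was not tested.

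In HPCs the sums of the megakaryocyte, hematopoietic and monocyte markers were also lower in cells labelled GATA2-/- without overlap. The megakaryocyte sum was 1360 and 1584 TPM in WT and 818.2 and 1265 in GATA2-/-, and 3 of 5 were at an unadjusted p under 0.05 with 0 called. PF4 was at 199.58 and 307.34 TPM against 76.54 and 99.51 (difference -1.49, adjusted p = 0.153 by limma) and PPBP was lower in 4 of 4 pairs, whereas TUBB1, a platelet tubulin, was higher in 4 of 4 (difference 1.39, adjusted p = 0.465 by limma). The 6 erythroid markers all had differences above 0, with a median of 0.32 against 0.054 over all genes and none at an unadjusted p under 0.05. Their sums of 3217 and 8996 TPM in WT and 4797 and 9952 in GATA2-/- overlapped. The hematopoietic sum was 378.2 and 325.8 TPM against 286.1 and 304.5, with VAV1 lower in 4 of 4 pairs (difference -0.70, unadjusted p = 0.0138, adjusted p = 0.395 by limma). Of the 5 hematopoietic markers 2 had a difference above 0, with a median of -0.057 over the list. MYB and SPN overlapped between genotypes. The monocyte sum was 323.2 and 456 TPM against 183 and 304.5. AIF1 led it at 227.8 and 344.21 TPM against 104.51 and 202.95 (difference -0.94, unadjusted p = 0.0196, adjusted p = 0.442 by limma). Of the 5 monocyte markers tested 2 had a difference above 0. LYZ was higher in GATA2-/- in 4 of 4 pairs, at 45.54 and 55.55 TPM in WT against 56.4 and 59.89. The part these cells had in the FOS and JUND differences was not tested. In HPCs mitochondrial transcripts took 8.66% and 9.61% of the TPM in WT and 15.1% and 14.8% in GATA2-/-, against 6.29% to 6.82% in HEs of both genotypes.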

How the data were processed

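The authors made the libraries with a TruSeq kit, sequenced short single-end reads and aligned them with Bowtie to the human genome, and deposited 1 TPM value per Ensembl gene and library with 2 decimals. The submitters' processing notes name Bowtie and RSEM, the builds hg19 and mm10, and no versions. The program that gave the TPM values, and whether counting used the strand, are not given in the sources used here. The authors tested differences from alignments, which was not repeated here. No other column of values was left out.

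Values were taken as log2(TPM + 1). Genes with a TPM of 1 or more in 2 libraries entered a limma 3.58.1 fit (R 4.3.3, moderated with a mean trend) over the 5 groups, with no replicate block, and p-values were adjusted by Benjamini-Hochberg over 21543 genes. The fit was tested on simulated data, and the outcome of that is not given here. Tables and motif searches used Python 3.11.15, the GRCh37 genome, which has the coordinates of hg19, and GENCODE. The depth is unknown, and precision rests on 2 libraries per group. The 2 WT hESC samples were not used here.

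The members and gene lists were chosen with earlier results of these data known. From each other list the genes named were up to 2 that rose and 2 that fell most in a comparison, or the 2 of lowest p where none was called. NFE2L1, CREM in WT, CYR61, IER5, NR4A1, MAP2K1 in WT, MMP14, PLAUR and HSPA1A, and the full lists of genes called in both genotypes, were named after their values were seen. Some genes of the other lists that the rule or the counts include are not reported here by name. SRF is in both the immediate early and the kinase list. The alternatives were a pseudocount of 0.1, no filter, no trend, a replicate block, quantile normalization, TPM without mitochondrial and globin genes, only the libraries compared, and each library left out. A filter applied within the libraries compared was added after seeing the data.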

Additional observations from a re-analysis of the deposited data

Results flagged for a closer look

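The genes of the other lists, with the cell type markers and GATA2, numbered 142. In 7 of them all 4 pairs of libraries moved one way in one group and the opposite way in the other. Limma's test of the difference passed in none of the 7. The share of all genes with this pattern was not counted, so the 7 are listed as a description. CREM differed between HEs labelled GATA2-/- and WT by 0.17 on the log2 scale and between HPCs by -0.31 (difference -0.48, adjusted p = 0.899 by limma). NFE2 differed by -2.33 between HEs and by 0.14 between HPCs (difference 2.46, adjusted p = 0.665 by limma). EGR4 differed by -0.36 between HEs and by 0.26 between HPCs (difference 0.62, adjusted p = 0.911 by limma), at no more than 0.42 TPM in HEs. ELK4, an SRF partner, differed between HPCs and HEs by -0.49 in WT and by 0.68 in GATA2-/- (difference 1.17, adjusted p = 0.818 by limma). Among the markers, ALAS2, an erythroid heme enzyme, differed between HEs by -1.98 and between HPCs by 0.53 (difference 2.51, adjusted p = 0.621 by limma). LYZ, a monocyte marker, differed by -0.98 and 0.20 (difference 1.18, adjusted p = 0.755 by limma). PDGFRA, a mesenchymal marker, differed by -1.0 and 0.40 (difference 1.41, adjusted p = 0.876 by limma), at no more than 3.86 TPM in these libraries.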

How the results depend on the processing

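From HEs to HPCs in WT, the 4 calls became 2 with a pseudocount of 0.1, 1 with no filter, 1 without the trend, 0 with only the 4 libraries compared, and 1 to 2 with 1 library left out. In GATA2-/- the 4 became 2 with no filter and 0 with only the 4 libraries, and stayed 4 with 1 library left out. The fit with only the 4 libraries held 730 (WT) and 596 (GATA2-/-) genes at 0 in all of them. With the filter applied within those libraries, a choice made after seeing the data, 4 genes were called in each. Directions of uncalled genes turned as follows. FOSL1 was 0.076 from hESCs to HEs and IER2 0.053 from HEs to HPCs in GATA2-/- under quantile normalization, and FOSL2 was 0.056 from HEs to HPCs in GATA2-/- without mitochondrial and globin genes. With 1 library left out, FOSL1 ranged from -0.93 to 0.37 between genotypes in HEs, -0.036 to 0.25 between stages in WT, -0.11 to 1.19 in GATA2-/-, -0.68 to 0.62 from hESCs to HEs and -0.21 to 1.09 in the change of the genotype difference. FOSL2 ranged from -0.68 to 0.0034 between stages in WT, -0.38 to 0.19 in GATA2-/- and -0.10 to 0.59 in the change of the genotype difference. ATF3 ranged from -0.62 to 0.97 between genotypes in HEs, -0.66 to 0.93 between stages in GATA2-/- and -0.44 to 1.15 from hESCs to HEs. IER2 ranged from -0.22 to 0.36 and -0.33 to 0.056 between genotypes in HEs and HPCs, -0.17 to 0.23 and -0.46 to 0.12 between stages in WT and GATA2-/-, and -0.49 to 0.088 in the change of the genotype difference. JUN ranged from -0.089 to 0.47 between genotypes in HEs, JUND from -0.11 to 0.50 between stages in GATA2-/-, and EGR1 from -0.087 to 0.094 between genotypes in HPCs. The cause was not tested.

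Replicate numbers were shared by all groups, but same-numbered libraries deviated together with r from -0.01 to 0.12 over genes, so the numbers were not taken as pairs. The file headers give the second replicate of HEs and HPCs in both genotypes the same tag, which the first lacks and whose meaning is not stated, so a shared batch cannot be told apart from the replicate number. There was 1 library per group and tag, and no test within a tag was run. FOS, FOSB, JUNB and EGR1 were higher in HPCs than in HEs with and without the tag. With the replicate block 0, 0, 4, 4, 8, 8 and 0 of the 10 genes were called in the 7 comparisons, as without it, and 2 and 3 genes in all between genotypes in HEs and HPCs. With the block 7 AP-1 targets were called between stages in WT and 5 heat shock genes in GATA2-/-. Between genotypes the 4 and 13 genes called became 87 and 29 with no filter, 12 and 20 without the trend, 0 and 0 with only the libraries compared, 1 and 0 with the filter within them, and 0 to 0 and 0 to 9 with 1 library left out, and the 13 became 6 with a pseudocount of 0.1. Between stages 2134 (WT) and 2745 (GATA2-/-) became 1035 and 1511 with no filter, 0 and 0 with only the libraries compared, and 849 to 1505 and 1257 to 1826 with 1 library left out. From hESCs to HPCs 6586 became 4386 with only those libraries, and with 1 left out 4180 to 5053, or 4075 to 4431 of 6462 to HEs. The change of the genotype difference had 30 calls with no filter and up to 5 with 1 library left out. Quantile normalization moved the median of all genes by 0.10 between stages in WT and -0.12 in the change of the genotype difference, and leaving out mitochondrial and globin genes moved it by 0.14 between stages in GATA2-/- and 0.11 from hESCs to HPCs. FOS, FOSB, JUNB and EGR1 kept their direction between stages in every alternative. TPM keeps no depth, so what depth limits could not be measured.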
